A study of Mus musculus with 2 samples.

Results

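Of the 55487 rows of the count table, 63 are genes of the Wnt signalling system at and around the cell surface, chosen by symbol: the Wnt ligands, their Frizzled receptors, the LRP and Kremen co-receptors, the R-spondins with their receptors and ligases, the secreted inhibitors, and 7 intracellular or nuclear genes of the pathway (Nkd1, Nkd2, Axin1, Axin2, Ctnnb1, Lef1 and Tcf7). They were measured by RNA sequencing in the mouse cell line MC3T3-E1, osteoblast precursors that came from newborn skull bone. There was 1 library of untreated cells and 1 of cells treated with parathyroid hormone (PTH) at 10 nM, both labelled 1 h. As each group is a single library, nothing below is checked by replicates and no p-value is given. Ratios are of counts scaled by library size, PTH over untreated, and the bracketed 95% exact interval covers counting error only, so it compares these libraries and not the conditions.

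Wnt ligands are secreted lipid-modified glycoproteins that bind a Frizzled receptor together with LRP5 or LRP6. Binding stops the destruction of beta-catenin, which then acts with TCF and LEF factors on target genes. R-spondins raise the number of receptors by removing the ligases ZNRF3 and RNF43, while secreted inhibitors bind either the ligand or the co-receptor. In bone the pathway is known for promoting osteoblast formation, and PTH, which acts through a receptor that raises cyclic AMP, is known to lower sclerostin, an LRP inhibitor made by osteocytes.

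After 1 h of PTH the largest ratios among the compared members were those of the ligand genes Wnt11, Wnt9a and Wnt4, with 3.26-fold to 4.41-fold more reads. Another ligand gene, Wnt2b, had 2.64-fold more. The receptor gene Fzd1 and the co-receptor gene Lrp4 had 1.85-fold and 1.81-fold more, and the inhibitor genes Notum and Sostdc1 had 2.73-fold and 2.91-fold more. A gene was taken as past the size limit when its whole interval lay beyond 1.5-fold. Of the 63 members, 44 had a total of 20 or more counts and were compared. By this limit 8 had more reads, 0 had fewer and 36 were neither, a share of 18.2% with more reads. Over all 16408 rows compared, 5.39% had more reads and 3.54% fewer by the same limit, and 4.49% of the 12771 protein-coding rows had more. The members were chosen with earlier results of these data known, and rows of like depth were not compared, so these shares only describe. The median log2 ratio of the 44 members was 0.08, beside 0.00 over all rows compared. Of the 44 ratios, 26 were above 1 and 18 below.

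The letters before the start sites are shown for the members past the limit. Cyclic AMP is known to act through the CRE, whose full letters are TGACGTCA and whose shorter core is TGACG. RefSeq windows (GRCm38.p6) of 250 bases before to 50 after a start site were at hand for 25 of the 44 compared members and for 5 of the 8 past the limit (Wnt9a, Wnt4, Wnt11, Wnt2b and Fzd1), and not for Lrp4, Notum and Sostdc1. The stretches printed here stop before the first annotated base of the gene, which leaves only 38 bases for Wnt2b (not shown), and run 5′ to 3′ on its strand. Capitals mark TGACG or the TCF letters CTTTGA on either strand (CGTCA and TCAAAG when read from the other). They lie at chr11:59306680-59306848 (plus strand) for Wnt9a, chr4:137277385-137277488 (plus) for Wnt4, chr7:98834862-98835083 (plus) for Wnt11 and chr5:4758217-4758466 (minus) for Fzd1.
Wnt9a: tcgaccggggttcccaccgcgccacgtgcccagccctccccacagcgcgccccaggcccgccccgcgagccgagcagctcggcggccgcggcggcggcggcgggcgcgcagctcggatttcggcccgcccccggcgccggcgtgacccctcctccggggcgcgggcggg
Wnt4: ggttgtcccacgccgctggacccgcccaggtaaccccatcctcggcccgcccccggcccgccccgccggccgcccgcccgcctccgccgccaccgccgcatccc
Wnt11: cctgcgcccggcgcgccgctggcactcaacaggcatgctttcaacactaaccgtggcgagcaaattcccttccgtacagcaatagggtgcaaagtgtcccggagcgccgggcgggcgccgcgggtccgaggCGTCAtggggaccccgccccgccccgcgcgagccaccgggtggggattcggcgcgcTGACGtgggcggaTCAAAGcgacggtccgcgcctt
Fzd1: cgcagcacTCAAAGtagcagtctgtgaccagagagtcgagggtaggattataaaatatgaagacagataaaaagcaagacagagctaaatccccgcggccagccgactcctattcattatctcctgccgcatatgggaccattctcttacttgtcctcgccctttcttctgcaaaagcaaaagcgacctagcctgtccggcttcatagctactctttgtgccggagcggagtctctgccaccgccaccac
The stretch of Wnt11 holds TGACG once on each strand, with first bases 119 and 63 bases before the start site, and TCAAAG 50 bases before it. Both RefSeq windows of Wnt11 hold TGACG, and none of the other 4 genes' windows does. The second Wnt11 window lies inside the gene, with its start site 3761 bases downstream of the first annotated base. In Fzd1 the TCAAAG letters begin 242 bases before the RefSeq start at position 4758216, which lies upstream of the GENCODE start of the gene at 4758035. The stretches of Wnt9a and Wnt4 hold none of these letters and are 84.6% and 83.7% G and C, against 51.2% for Fzd1. No window of a compared member held the full TGACGTCA, which 1.79% of 32817 RefSeq windows hold. TGACG is in 20.8% of all windows and CTTTGA in 16%. Of the 6 windows of the genes past the limit, 2 held TGACG and 2 held CTTTGA. The 20 compared members with a window that were not past the limit have 28 windows. TGACG stood in 2 of these, or 7.14% (Ctnnb1 and Wnt10b), and CTTTGA in 3, or 10.7% (Frzb, Lef1 and Wnt5b). A match is a run of letters, not a bound site, and a link between these letters and the ratios was not tested.

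Of the 19 ligand genes, 10 were compared, and 4 of these had more reads past the limit while 6 were neither. Wnt9a (chr11:59306928-59333552, plus strand), a ligand known from joint and skeletal development, had 549 counts untreated and 2216 after PTH. As CPM (counts scaled by library size) per kb of exonic length this is a level of 2.46 untreated (2.25 to 2.67) and 9.63 after PTH (9.23 to 10.04). The PTH library was 3.92-fold higher (3.57 to 4.31). Wnt11 (chr7:98835112-98855195, plus), which mostly acts without beta-catenin, had 37 and 168 counts and was 4.41-fold higher (3.07 to 6.48), from a level of 0.133 to 0.587 per kb. Both stood below the main ligands of these cells in the untreated library.

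Wnt4 (chr4:137277489-137299726, plus), a ligand that osteoblasts are known to respond to, had 333 counts untreated and 1118 after PTH, or 1.18 and 3.85 CPM per kb. It was 3.26-fold higher in the PTH library (2.88 to 3.70). Wnt2b (chr3:104945272-104961921, minus) had 28 and 76 counts and was 2.64-fold higher (1.69 to 4.22), at a level of 0.262 per kb after PTH. Of all rows with 10 to 29 counts untreated, 10.8% were at 0 after PTH, a spread that its interval does not cover. Wnt7b had 6 and 20 counts, a ratio of 3.24 whose interval of 1.254 to 9.85 does not clear the limit. At counts this low a 3-fold difference could not be told from 1.5-fold.

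The ligands with the highest levels differed less. Wnt6 was at 28.1 CPM per kb untreated and 25.7 after PTH, a ratio of 0.915 (0.876 to 0.956). Wnt10a was at 27.7 and 34.4, a ratio of 1.24 (1.19 to 1.29). Untreated, the intervals of these levels overlapped, and after PTH Wnt10a stood above Wnt6 beyond counting error. Wnt10b, a ligand known to promote bone formation, was at 10.6 and 8.27 per kb with 2418 and 1944 counts, a ratio of 0.781 (0.735 to 0.829). Wnt9a moved from the fifth level of the 10 to the third, above Wnt10b. Wnt4 moved from the seventh to the fifth, where its interval (3.63 to 4.09) overlapped that of Wnt5b (3.20 to 3.75). Wnt5a and Wnt5b, which mainly signal without beta-catenin, had ratios of 1.19 (1.09 to 1.29) and 0.845 (0.759 to 0.941).

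**Figure D1:**
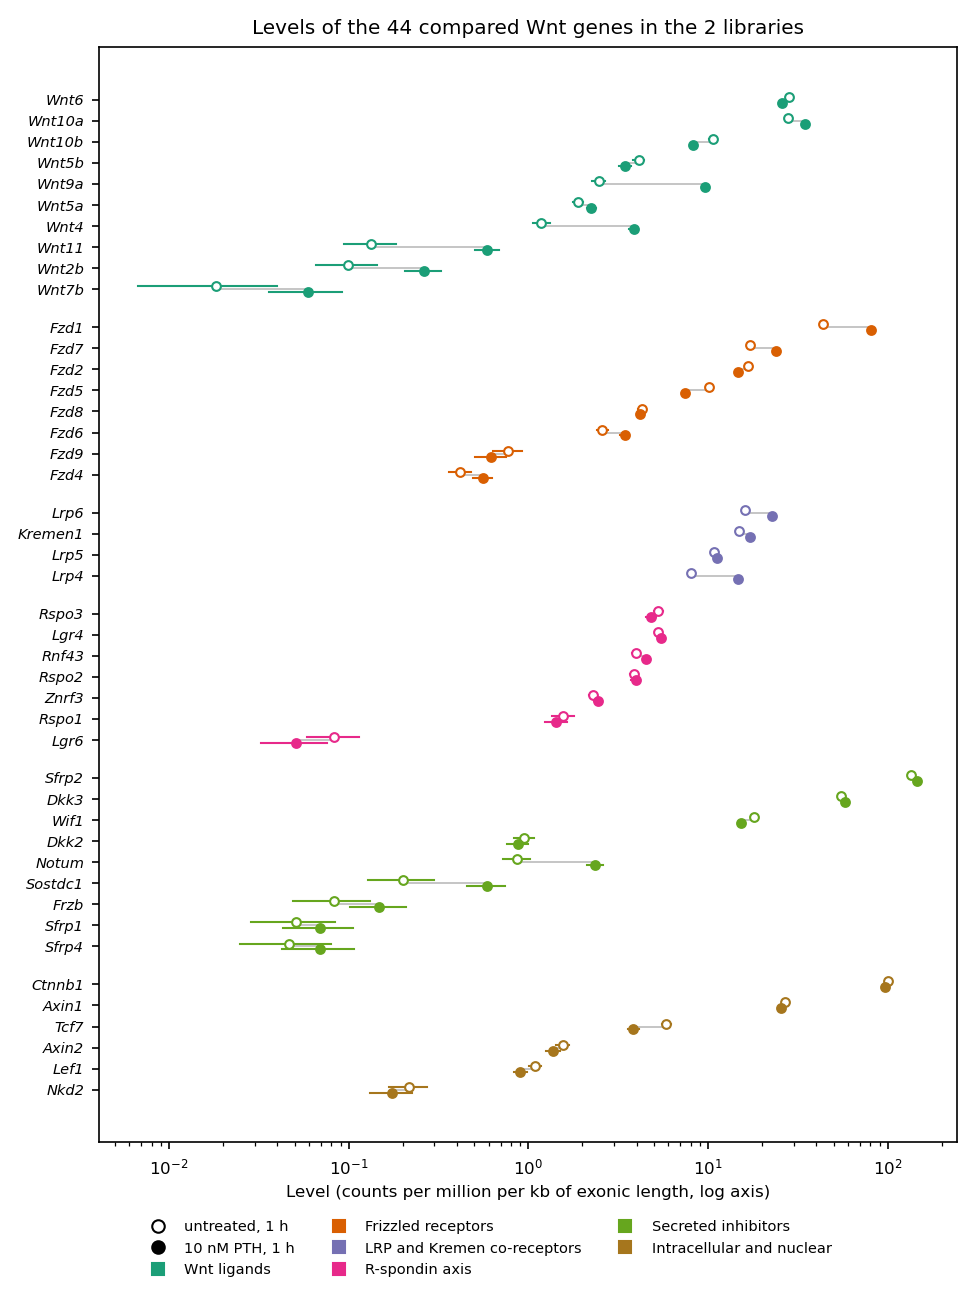
Levels of the 44 compared Wnt genes in CPM per kb of exonic length (log axis), with open points for the untreated library, filled points for the PTH library and bars for 95% Poisson intervals. Wnt9a stands at 2.46 untreated and 9.63 after PTH, while Sfrp2, at 135 and 145, is the gene with the highest level in both libraries.

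Of the other 9 ligand genes, 8 were listed at 0 in both libraries: Wnt2, Wnt3, Wnt3a, Wnt7a, Wnt8a, Wnt8b, Wnt9b and Wnt16. Wnt1 had 0 counts untreated and 8 after PTH, below the total needed for comparison. If sampling alone were at work, a listed 0 could hide a true level of up to 3 counts, or 0.0447 CPM untreated and 0.0434 after PTH. The table holds many zeros beside counts well above that. Of 2484 rows with 10 to 29 counts untreated, 268 were at 0 after PTH, and of 2496 with 10 to 29 after PTH, 330 were at 0 untreated. A listed 0 is therefore not read as that bound, and no ratio is given for such a row.

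Several ligand genes are neighbours in the genome. Wnt9a lies 16.2 kb from Wnt3a on chromosome 11 and had 2216 counts after PTH, while Wnt3a was listed at 0 in both libraries. Wnt10b lies 11.7 kb from Wnt1 on chromosome 15. Wnt6 and Wnt10a lie 6.19 kb apart on chromosome 1 on the same strand, at levels close to each other untreated and with ratios on either side of 1. Wnt9b and Wnt3, 24.3 kb apart, were both listed at 0. Kremen1 and Znrf3 were the one other pair of members within 50 kb, at 14.8 kb.

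Among the 10 Frizzled genes, which encode the receptors that bind the ligand, 8 were compared, 1 had more reads past the limit and 7 were neither. Fzd1 (chr5:4753839-4758035, minus) had 12237 counts untreated and 23300 after PTH. It had the highest level of the family in both libraries, at 43.4 and 80.3 CPM per kb, and was 1.85-fold higher after PTH (1.81 to 1.89). Its nearest relatives, Fzd2 and Fzd7, went to either side. Fzd7 was at 17.04 and 23.9 per kb, a ratio of 1.40 (1.35 to 1.45), and Fzd2 at 16.7 and 14.7, a ratio of 0.881 (0.843 to 0.921). The levels of Fzd7 and Fzd2 overlapped untreated and no longer did after PTH.

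Fzd5 was at 10.1 and 7.43 per kb, the lowest ratio of the family at 0.733 (0.702 to 0.766). Fzd6 and Fzd4 had ratios of 1.33 (1.22 to 1.46) and 1.34 (1.10 to 1.62). Fzd8 was at 0.982 (0.918 to 1.05) and Fzd9 at 0.806 (0.611 to 1.06), with intervals that hold 1. Fzd3 was listed at 0 and 5 counts, and Fzd10 at 0 in both libraries.

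Of the 5 co-receptor genes, 4 were compared and all 4 ratios were above 1, with 1 past the limit. Lrp4 (chr2:91457511-91513779, plus), whose product holds sclerostin at the cell surface, had 5698 counts untreated and 10637 after PTH. At 8.08 per kb it had the lowest untreated level of the 4, and at 14.6 after PTH it stood above Lrp5. The ratio was 1.81 (1.76 to 1.87). Lrp6, one of the signalling co-receptors, had 14751 and 21335 counts and a ratio of 1.40 (1.38 to 1.43). Its partner Lrp5 had 7017 and 7517 counts and a ratio of 1.04 (1.01 to 1.07). The interval of Lrp6 lies wholly above that of Lrp5. Kremen1, which binds Dkk proteins and co-receptors, was at 14.8 and 17.1 per kb, a ratio of 1.16 (1.12 to 1.19), and Kremen2 had 3 and 0 counts.

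**Figure D2:**
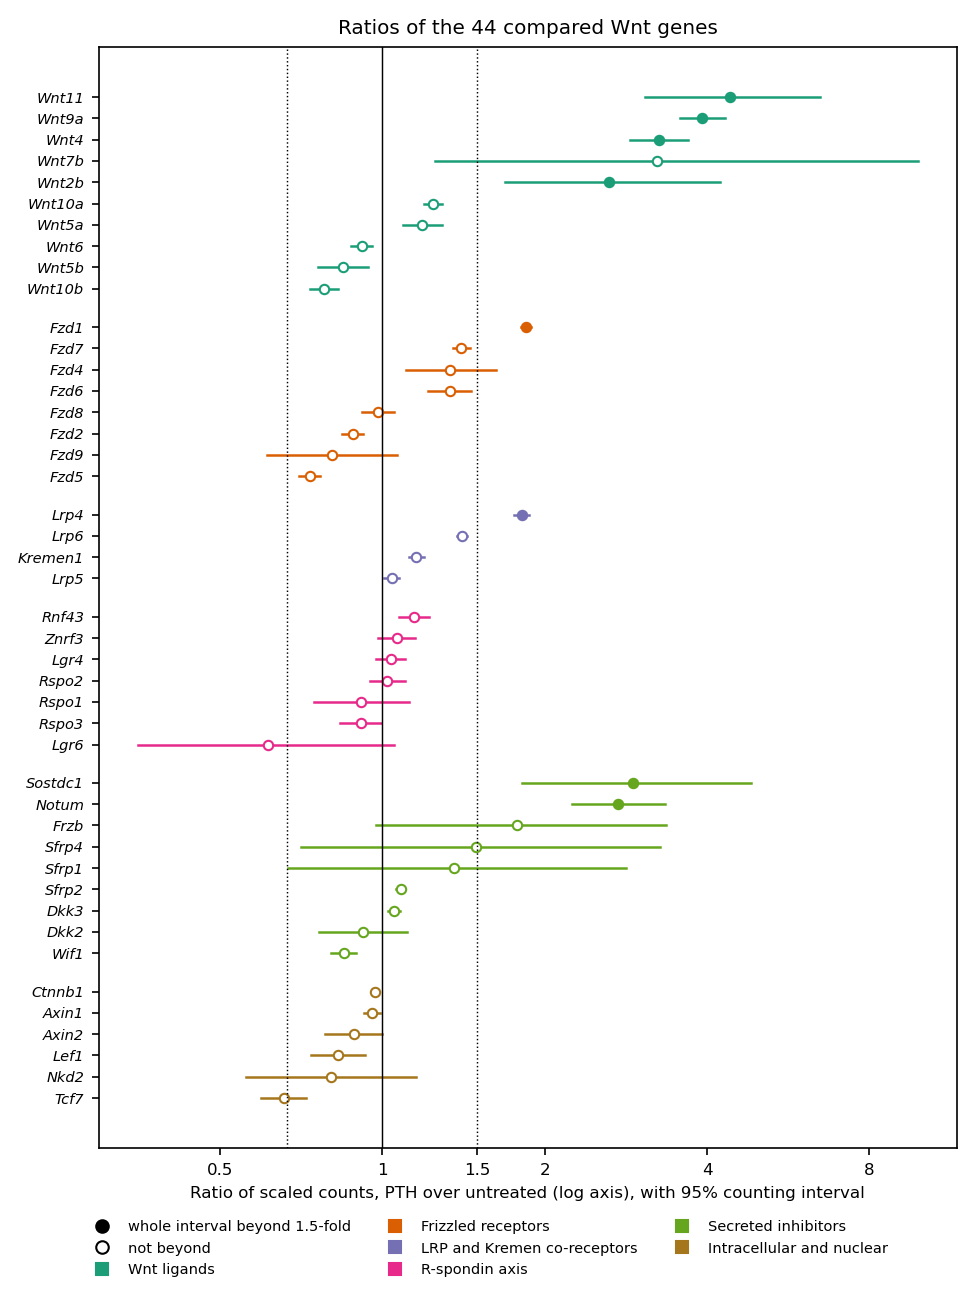
Ratio of scaled counts, PTH over untreated, on a log axis for the 44 compared Wnt genes by role, with 95% counting intervals, a solid line at 1 and dotted lines at 1.5-fold in either direction. The 8 filled points have their whole interval above 1.5-fold, and no gene has its whole interval below the lower line.

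None of the 7 compared genes of the R-spondin axis was past the limit, and the 2 remaining ones were too low to compare. The R-spondin genes Rspo1, Rspo2 and Rspo3 had ratios of 0.914 (0.746 to 1.12), 1.02 (0.947 to 1.10) and 0.911 (0.836 to 0.993). Their receptor gene Lgr4 was at 5.27 CPM per kb untreated and 5.46 after PTH, a ratio of 1.04 (0.975 to 1.10). The ligase genes Znrf3 and Rnf43 were at ratios of 1.06 (0.984 to 1.15) and 1.15 (1.07 to 1.22). For Rspo2, Rspo3, Lgr4, Znrf3 and Rnf43, each with over 1000 counts in total, the intervals keep any difference between these libraries within 1.5-fold. Lgr6 had 38 and 24 counts, a ratio of 0.613 (0.352 to 1.05). Lgr5 was listed at 0 and 7 counts and Rspo4 at 0 and 4.

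The secreted inhibitors split by level. Sfrp2, whose product binds Wnt ligands, had the highest level of all 63 members, at 135 and 145 CPM per kb, with a ratio of 1.08 (1.06 to 1.10). Dkk3, a divergent relative of the LRP-binding Dkk proteins, was at 54.7 and 57.5, a ratio of 1.05 (1.03 to 1.08). Wif1, a ligand-binding inhibitor, was at 18.0 and 15.2, a ratio of 0.848 (0.804 to 0.894). The 2 inhibitor genes past the limit stood far below these in level.

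Notum (chr11:120653788-120661175, minus), a secreted enzyme that removes the lipid from Wnt ligands, had 139 counts untreated and 391 after PTH. It was 2.73-fold higher (2.25 to 3.34), from 0.860 to 2.35 per kb. Exons of genes on the opposite strand cover 38.1% of its exons, and the use of strand in counting is among the points not given in the sources used here. One of these genes, the antisense transcript gene Notumos, had 10 counts untreated and 113 after PTH and was 11.0-fold higher (5.75 to 23.5). The other, Myadml2os, had 20 and 40 counts, a ratio of 1.94 (1.11 to 3.51). If strand was not used, reads of Notum and of its antisense neighbours cannot be told apart where the exons overlap. The part of Notumos in the Notum count was not tested.

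Sostdc1 (chr12:36314139-36318452, plus), a relative of sclerostin that binds both BMPs and LRP co-receptors, had 24 and 72 counts. It was 2.91-fold higher after PTH (1.81 to 4.84), at levels of 0.201 and 0.585 per kb. Its untreated count is in the range of 10 to 29, where many rows were at 0 after PTH, a spread its interval does not cover. Sost, which encodes sclerostin itself, was listed at 0 counts in both libraries, so these cells give no value for it. Dkk1, the classical LRP-binding inhibitor, had 17 counts untreated and is listed at 0 after PTH. Its total was below the 20 needed for comparison, and 10.8% of all rows with 10 to 29 counts untreated were at 0 after PTH. Dkk2 was at a ratio of 0.922 (0.764 to 1.11). Frzb, Sfrp4 and Sfrp1 had 33 or fewer counts per library and ratios of 1.78, 1.49 and 1.36 with intervals that all hold 1. Sfrp5 was listed at 0 and 3 counts, and Dkk4 at 0 in both.

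All 6 compared intracellular and nuclear members had ratios below 1, and none was past the limit. Tcf7, which encodes the T cell factor TCF1, was the lowest, with 1033 counts untreated and 698 after PTH. Its level was 5.86 and 3.85 CPM per kb and its ratio 0.656 (0.595 to 0.723), an interval that reaches across the limit. Lef1, its relative, had 644 and 549 counts and a ratio of 0.828 (0.737 to 0.929). Axin2, a feedback inhibitor widely read as a sign of beta-catenin signalling, had 573 and 522 counts and a ratio of 0.885 (0.784 to 0.998). Ctnnb1, the beta-catenin gene, was at 99.9 and 96.8 per kb, a ratio of 0.969 (0.955 to 0.984), and Axin1, of the complex that destroys beta-catenin, at 0.957 (0.925 to 0.990). Nkd2, which encodes a Dishevelled-binding inhibitor, had 70 and 58 counts, a ratio of 0.805 (0.558 to 1.16), and its relative Nkd1 had 6 counts in each library. Opposite-strand exons cover 14.6% of Ctnnb1, 13.8% of Lef1, 16.1% of Sfrp2, 17.8% of Fzd5, 13.1% of Rspo3 and 8.80% of Wnt11, and under 7% of each other compared member except Notum.

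**Figure D3:**
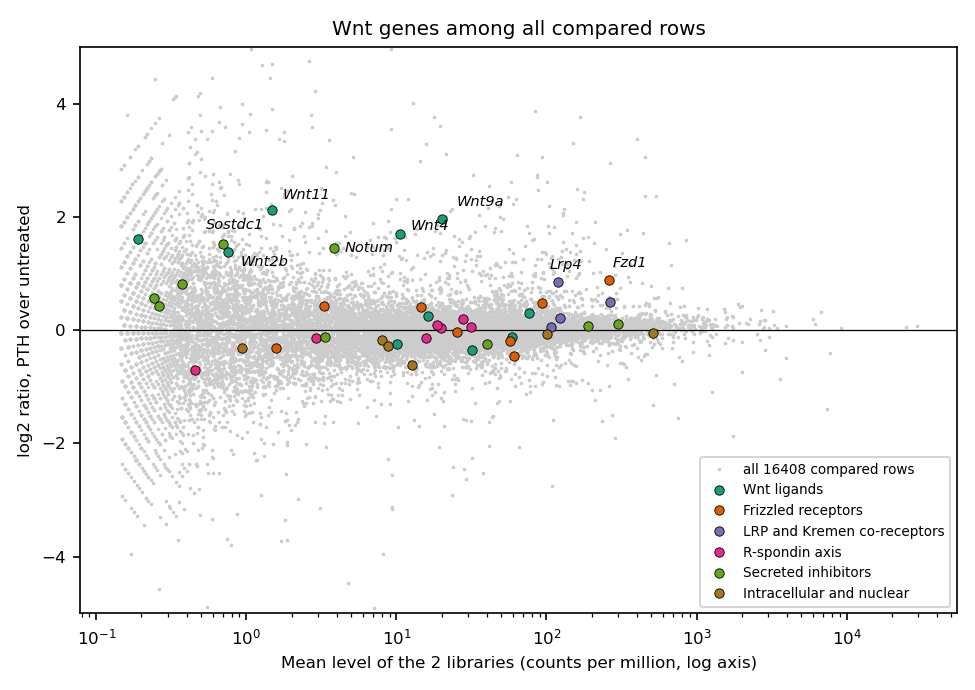
Log2 ratio, PTH over untreated, against the mean level of the libraries in CPM (log axis) for all 16408 compared rows in grey, with the Wnt genes coloured by role. The 8 labelled genes are those past the limit, and 153 grey rows lie outside the plotted range of the vertical axis.

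Depth bears on which members could pass. Of the 30 members with at least 1000 counts in total, 4 were past the limit (Wnt9a, Wnt4, Fzd1 and Lrp4), and of the 14 with fewer, another 4 (Wnt11, Wnt2b, Notum and Sostdc1). The share of all rows at like depth was not taken, and the 5.39% over all rows compared pools every depth. A further 12 members had an interval wholly above 1 but not past the limit, 12 had one wholly below 1, and 12 had one that holds 1. The spread between cultures is unknown. With intervals widened by an assumed coefficient of variation of 0.2 per library, Wnt9a, Wnt11, Wnt4 and Notum were still past the limit (4 of 44), beside 2.89% of all rows. Fzd1 was then at 1.06 to 3.22, Lrp4 at 1.04 to 3.16, Wnt2b at 1.29 to 5.26 and Sostdc1 at 1.40 to 5.90. With a coefficient of variation of 0.1, 6 of the 44 were past the limit. Fzd1 (1.40 to 2.44) and Lrp4 (1.37 to 2.40) already fell short there.

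Other genes of the pathway were read from 3 lists. By the same limit 5.39% of all rows compared had more reads and 3.54% fewer. Of 36 compared intracellular pathway genes, 2 had more reads, 1 had fewer and 33 were neither. The median log2 ratio was 0.00. Dact2, a Dishevelled-binding regulator, had 103 and 218 counts and was 2.06-fold higher (1.62 to 2.62). Its relative Dact1 had 2301 and 3766 counts and was 1.59-fold higher (1.51 to 1.67), with opposite-strand exons over 34.9% of its length. The gene of those exons, 4930474H06Rik, was listed at 0 in both libraries. Tle4, a Groucho-type corepressor of TCF factors, had 681 and 398 counts and a ratio of 0.568 (0.5003 to 0.643). The members of this list with the most counts were Daam2, a formin, at 1.48 (1.46 to 1.503), and Csnk1a1, a kinase of the beta-catenin destruction complex, at 1.05 (1.03 to 1.07).

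In the list of Wnt secretion, co-receptor and planar polarity genes 1 of 26 compared genes had more reads, beside 5.39% of all rows compared. The other 25 did not pass the limit. The median log2 ratio was 0.04. Tpbg, which encodes a surface glycoprotein that restrains Wnt signalling through LRP6, had 5524 and 16158 counts and was 2.84-fold higher (2.75 to 2.93). The opposite-strand gene 9330154J02Rik, which had 223 and 1147 counts, is the one that covers 23.5% of its exonic length. Its part in the Tpbg count was not tested. Mest and Ptk7, the genes of this list with the most counts, were at ratios of 1.11 (1.09 to 1.13) and 0.999 (0.976 to 1.02).

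The third list is read beside the same shares of all rows, 5.39% with more reads and 3.54% with fewer. Of 24 compared genes on this list of widely used beta-catenin targets, 4 had more reads, 1 had fewer and 19 were neither. The median log2 ratio was -0.02. Besides Notum those with more were Fosl1, an AP-1 gene with opposite-strand exons over 57.2% of its length, at 2.38-fold (2.28 to 2.49), Tbx3, a T-box factor, at 1.82-fold (1.71 to 1.95), and Enc1, an actin-binding protein gene, at 1.65-fold (1.61 to 1.69). The opposite-strand gene at Fosl1, Ccdc85b, had 6113 and 6843 counts, and its part in the Fosl1 count was not tested. Jun was the gene with fewer reads, with 12678 counts untreated and 1940 after PTH. The cell cycle gene Ccnd1, often read as a Wnt target, was at 0.894 (0.876 to 0.911). Cd44, an adhesion receptor gene with the most counts on the list, was at 1.22 (1.203 to 1.24), with Ccnd1 next in counts. The list shares 10 genes with the 63 members, 7 of them compared, and Notum alone of those 7 was past the limit.

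**Figure D4:**
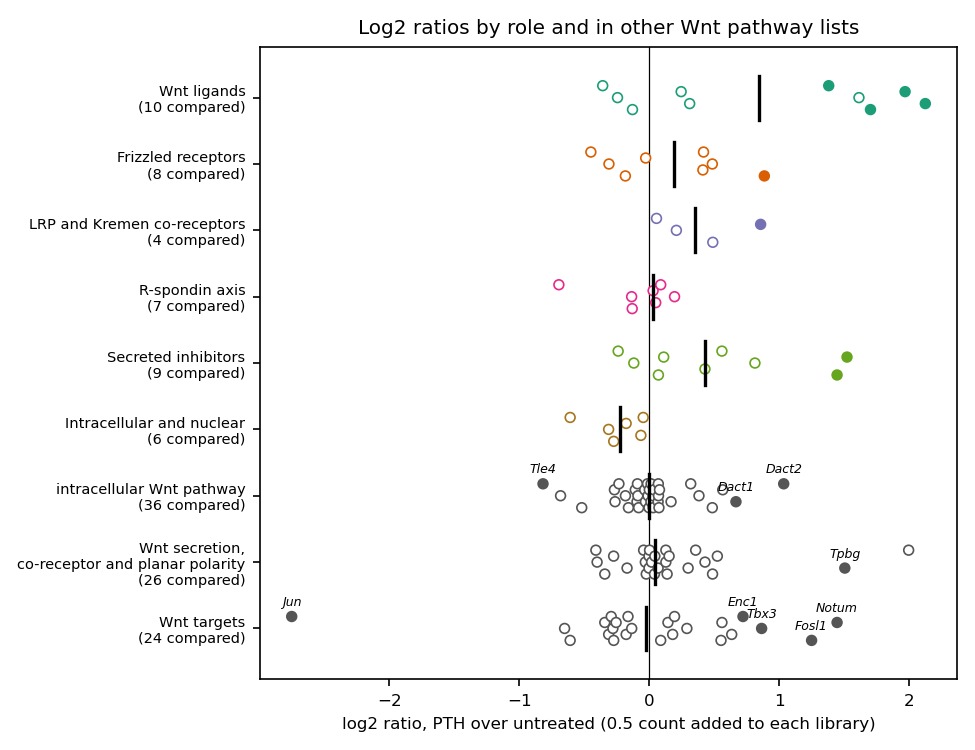
Log2 ratio, PTH over untreated, with 0.5 count added to each library, for the members by role and for 3 lists of other Wnt pathway genes, with filled points for genes past the 1.5-fold limit and black bars for medians. The ligands have a median of 0.85 and the intracellular and nuclear members one of -0.22. The ligand median falls in a gap between Wnt10a at 0.31 and Wnt2b at 1.38, with no ligand near it.

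The untreated library held 66302211 counts and the PTH library 70036872. All 10 osteoblast markers read had enough counts to compare, with summed levels of 59657 and 62983 CPM, and Col1a1 alone had 1935295 and 2093308 counts. Of these 10, 1 had more reads past the 1.5-fold limit, 1 had fewer and 8 were neither. Over all rows compared, 5.39% had more and 3.54% fewer. Sp7, the gene of the osteoblast transcription factor osterix, had 4583 counts untreated and 1974 after PTH, a ratio of 0.418 (0.397 to 0.441), and was no longer past the limit with the interval widened for a coefficient of variation of 0.2. Bglap2, an osteocalcin gene, had 24 and 86 counts, a ratio of 3.48 (2.19 to 5.72), and shares near-identical sequence with Bglap, at 57 and 87 counts, so that the split of reads between them is uncertain. Of the osteocyte markers, Sost and Fgf23 were listed at 0 in both libraries and Dmp1 had 74 and 49 counts, while Pdpn, which other cells also express, had 2669 and 8276. Summed levels were below 4 CPM for the adipocyte, muscle, endothelial and macrophage markers in both libraries, and 413 and 557 for 5 chondrocyte markers, nearly all of it Col2a1, with Acan and Col10a1 at 0. The muscle marker Acta1 had 124 and 28 counts. The part of any of these in the Wnt results was not tested, and in bulk RNA a change in the number of cells of a type and in RNA per cell cannot be told apart.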

How the data were processed

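RNA of MC3T3-E1 cells was sequenced in 1 untreated and 1 PTH library, grouped by the labels. The authors deposited counts per gene as whole numbers. Whether each is a plain tally of reads is not known, and the intervals treat it as one. Reads were aligned with HISAT2 against mm10, per the submitters' processing notes. The counting tool, annotation and use of strand are points not given in the sources used here. Members were found by symbol, and all 63 matched GENCODE release M21 by gene identifier (build GRCm38, the same as mm10), the source of gene coordinates, exonic length (the union of all exons) and shared exons. Levels are CPM over TMM effective library sizes (edgeR 4.0.16, R 4.3.3; rows with a total of 20 or more), per kb of exonic length, with exact Poisson 95% intervals. With 1 library per group the quasi-likelihood fit of edgeR has no residual degrees of freedom and was not run. Ratios carry exact conditional (Clopper-Pearson) 95% intervals (scipy 1.17.1, Python 3.11.15). Their check on simulated data drew Poisson counts, as the intervals assume, so it does not cover how far these data depart from that. Reads copied by PCR are not independent, so intervals and floors cover counting error only. Log2 ratios were taken after adding 0.5 to each count. Named in full are members past the 1.5-fold limit and, per role, the 4 with the most counts per kb, and in the other lists genes past the limit and the 2 with the most counts. The overlapping opposite-strand genes were named after their values were seen. The members and lists were chosen with earlier results of these data known. The motif search covered both strands of whole RefSeq windows. Alternatives were 3 other scalings (total counts, DESeq2 1.42.0 size factors, upper-quartile factors), different fold limits and filters on low counts, widened intervals, and 2 counts added before the log.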

Additional observations from a re-analysis of the deposited data

How the results depend on the processing

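Under total-count, DESeq2 and upper-quartile scaling all 44 compared members kept their call, and the median log2 ratio of the members ranged from 0.04 to 0.08, while that of all rows ranged from -0.04 to 0.00. Among members, the count with more reads was 8. It fell to 6 (without Fzd1 and Lrp4) with the interval widened for a coefficient of variation of 0.1. With a coefficient of 0.2 it fell to 4, and with a fold limit of 2 to 4. It rose to 9 (with Wnt1) with any count in either library and to 11 (with Fzd7, Lrp6 and Wnt7b) with a lower fold limit. Those with fewer reads rose from 0 to 1 (Dkk1) with a total of 10 or more or with any count in either library, and to 2 (Fzd5 and Tcf7) with that lower limit. In the intracellular list, total-count and upper-quartile scaling each gave 1 gene with more and 2 with fewer reads, that lower limit gave 4 and 3, and the limit of 2 and both widened intervals gave 0 and 0. In the secretion and co-receptor list, genes with more reads became 2 with either lower count filter and 3 with the lower limit. In the target list, genes with fewer reads became 2 with total-count or upper-quartile scaling and with either lower count filter, and 3 with the lower limit. Those with more reads became 6 (with Twist1 and Id2) with the lower limit, 2 with the limit of 2 and with a coefficient of variation of 0.1, and 1 with 0.2. These changes follow from the stricter or looser limits and filters themselves, or from genes next to the limit. No paired analysis was possible because each group has 1 library, and for the same reason no library could be left out. Depth limits Wnt7b, Frzb, Sfrp1, Sfrp4 and Lgr6, each with 38 or fewer counts per library, whose wide intervals reach across a 1.5-fold limit.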
